A study of Mus musculus with 6 samples.

Results

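The death receptor and caspase-8 pathway was followed through 10 genes taken by name from a count table of 27179 genes: the receptors Fas, Tnfrsf10b and Tnfrsf1a, the ligands Fasl and Tnfsf10, the adaptors Fadd and Tradd, the kinase Ripk1, the initiator caspase Casp8 and its regulator Cflar. The libraries were made from mouse leukaemia cells of strain C57BL/6, labelled as the line A/E9a;NRASG12D;Ifnar1-/-, treated for 3 days with panobinostat, a histone deacetylase inhibitor, or with vehicle, with 3 libraries in each group. The line carries the A/E9a form of the AML1-ETO fusion oncogene, an activated NRAS and no working Ifnar1, which encodes a chain of the receptor for type I interferons, and by their labels the libraries of both groups carry all 3. The cells were taken from the spleen and sorted as viable cells positive for green fluorescent protein. The labels do not say how old the mice were, what dose they had or whether each library is a different animal. The p-values therefore rest on the spread between libraries, which may in part be technical.

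Death receptors are cell surface proteins whose bound ligands gather the adaptor FADD and the inactive form of caspase-8 into a signalling complex, where caspase-8 activates itself and then cuts the executioner caspases and the BCL2 family member BID. The protein c-FLIP, made from Cflar, resembles caspase-8 and limits its activation. The receptor for tumour necrosis factor (TNF) first assembles TRADD and RIPK1 for survival signalling, and where caspase-8 is blocked RIPK1 can pass to RIPK3 and MLKL, which cause necroptosis, a lytic form of cell death. Ligands and receptors of this pathway have been studied in myeloid leukaemia as genes that histone deacetylase inhibitors can raise.

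Library totals ran from 31989622 to 35962605 counts, and values are given as CPM, the counts scaled to a common library size with TMM factors. Ifnar1, labelled as knocked out in both groups, was counted at 35.7 to 46.4 CPM in panobinostat and 36.9 to 48.0 CPM in vehicle libraries. Counts per gene do not show where in the gene the reads lie, so the knockout was not checked. Libraries are numbered as in the table's column names, which the labels do not tie to replicate numbers. Vehicle library 1 stood apart from its group: across tested genes, the Pearson r of its log2 CPM was 0.942 and 0.941 with vehicle libraries 2 and 3, against 0.976 and 0.984 with panobinostat libraries 2 and 3. Where leaving it out moved the fold change of a named gene by over 1.5 times, the value without it is given. Panobinostat library 1 had an r of 0.971 and 0.963 with panobinostat libraries 2 and 3, which had 0.987 with each other. Kit, the stem cell factor receptor of progenitors and mast cells, stood at 172 to 241 CPM in panobinostat and 121 to 266 CPM in vehicle libraries. Itgam, the CD11b chain of mature myeloid cells, stayed at or under 0.663 CPM in all 6.

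None of the pathway genes was called between panobinostat and vehicle. Of the 10 genes, 7 passed the filter on low counts, and 0 of these 7 passed an adjusted p of 0.05 in edgeR's quasi-likelihood test, where 0 of 13207 genes (0%) passed. DESeq2 and limma-voom also called 0 of the 7, while over all genes DESeq2 called 9, 0.053% of genes higher and 0.0151% lower, and limma-voom 0. At an unadjusted p under 0.05 in edgeR, 1 of the 7 genes, Tnfsf10, passed, and so did 301 genes, 2.28% of all tested, with 1.32% higher with panobinostat. Estimates were higher with panobinostat for 6 of the 7 genes, as for 50.2% of all tested genes, and lower for Tnfrsf10b. The median log2 fold change of the 7 genes was 0.11, beside 0.0009 over all tested genes.

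**Figure D1:**
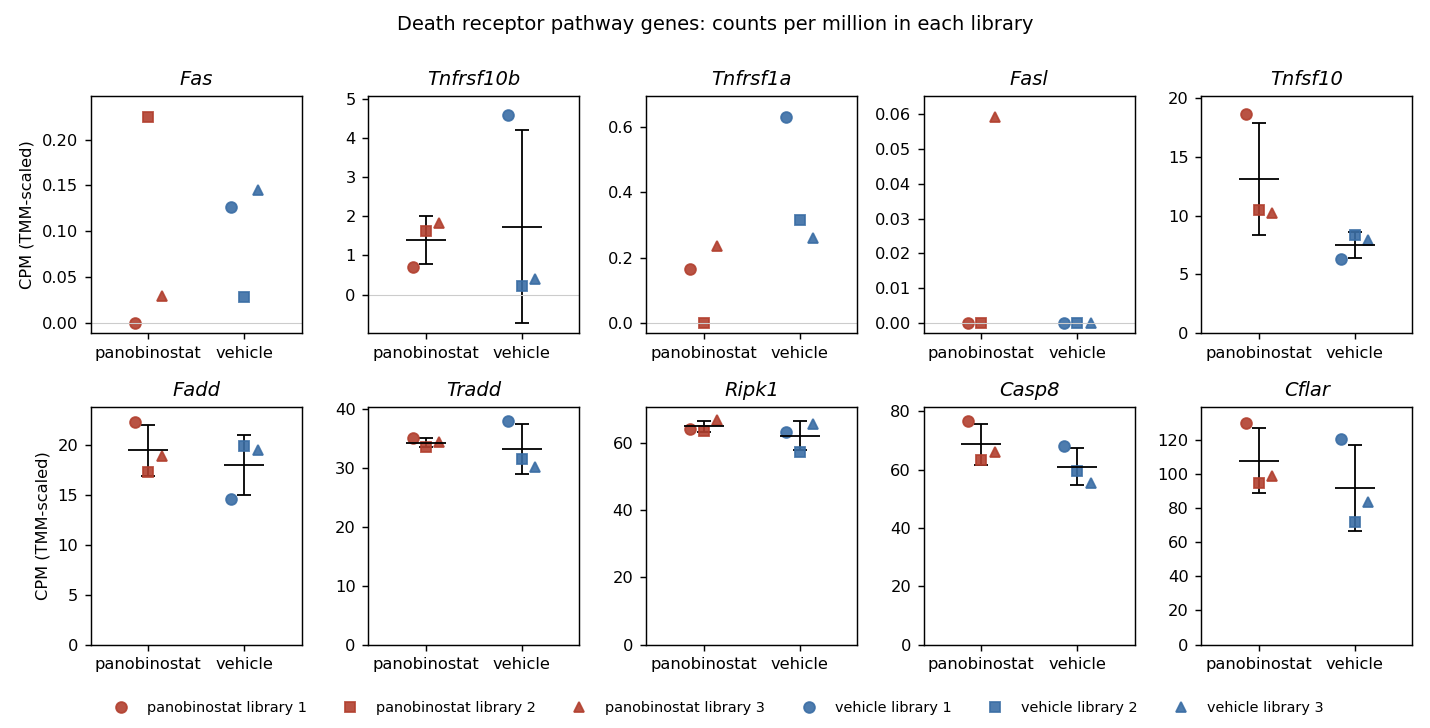
CPM of the 10 pathway genes in panobinostat (left) and vehicle libraries (right of each panel). Points are libraries, and horizontal bars with error bars are the mean and SD of 3 libraries, left out for Fas, Tnfrsf1a and Fasl, which had few counts. Tnfsf10 stood at 10.2 to 18.6 CPM in panobinostat libraries, all above the 6.29 to 8.35 CPM of vehicle libraries, and vehicle library 1 had the highest Tnfrsf10b at 4.58 CPM.

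Per length of exon the 3 receptors averaged at most 0.287 RPKM (CPM divided by exon length in kilobases), the lowest of the 10 genes apart from Fasl. Fas (Entrez gene 14102, chromosome 19, 34290647 to 34327775, GRCm38), the receptor of Fas ligand, had 0, 8 and 1 counts in panobinostat libraries 1, 2 and 3 and 4, 1 and 5 counts in vehicle libraries 1, 2 and 3. That is 0 to 0.225 CPM in panobinostat and 0.0287 to 0.145 CPM in vehicle libraries, and the groups overlapped. A count of 0 allows up to 3 counts, 0.0834 to 0.0948 CPM depending on the library, so 1 panobinostat library with 0 and 1 library of each group with 1 count lay under that limit. Such limits reflect the counting of reads and leave out other error, as PCR copies of a molecule are counted as separate reads. Tnfrsf1a (Entrez gene 21937, chromosome 6, 125349723 to 125362483), the main TNF receptor with a death domain, had 6, 0 and 8 counts in panobinostat libraries and 20, 11 and 9 in vehicle libraries 1, 2 and 3. All 3 panobinostat values, at most 0.237 CPM, lay under the lowest vehicle value of 0.261 CPM, but with 14 and 40 counts in all the gene did not pass the filter. Fitted with no filter, its log2 fold change was -1.55 (SE 0.988) with an edgeR adjusted p of 0.977. In sorted bulk cells, fewer cells that carry a transcript and less of it per cell cannot be told apart.

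Tnfrsf10b (Entrez gene 21933, chromosome 14, 69767472 to 69784411) encodes the single mouse death receptor for TRAIL, the TNF-related ligand made from Tnfsf10. It stood at 0.695, 1.63 and 1.84 CPM in panobinostat libraries 1, 2 and 3 and at 4.58, 0.229 and 0.406 CPM in vehicle libraries 1, 2 and 3. Vehicle library 1 was the highest of the 6 and vehicle libraries 2 and 3 the lowest, so the groups overlapped. The log2 fold change was -0.32 (SE 1.12, 95% interval -3.02 to 2.38), with an edgeR adjusted p of 0.998. Without vehicle library 1 the direction turned, to 2.1 (SE 0.608) with an edgeR adjusted p of 0.140. Without both libraries numbered 1, a setting added after the data were seen, it was 2.42 (SE 0.455) with an edgeR adjusted p of 0.0223, in a fit that called 974 genes (7.36%) higher and 616 (4.65%) lower. Itga2b, the megakaryocyte integrin chain, moved with it across libraries, at 13.0, 54.5 and 85.9 CPM in panobinostat and 149, 3.99 and 2.90 CPM in vehicle libraries 1, 2 and 3. The summed level of the 10 erythroid and megakaryocyte markers, mostly globins, ran from 1830 to 11093 CPM in panobinostat and from 3896 to 11890 CPM in vehicle libraries, and was highest in vehicle library 1. Whether these transcripts come from the leukaemia cells or from others was not tested, nor was their link to the Tnfrsf10b values.

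Other TRAIL receptors of the mouse were also low. Tnfrsf22 and Tnfrsf23, receptors for TRAIL that lack a death domain, were named after their values were seen. Tnfrsf22 stood at 3.83 ± 0.361 CPM in panobinostat and 2.74 ± 0.908 CPM in vehicle libraries (SD, n = 3 each), and Tnfrsf23 at 2.01 ± 0.380 and 1.43 ± 0.490 CPM in panobinostat and in vehicle libraries. Their sequences are alike and reads could be split between them, so each value is uncertain. Their edgeR log2 fold changes, 0.48 (SE 0.304) and 0.49 (SE 0.352), each had an adjusted p of 0.998.

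Among the ligands, Fasl was all but uncounted and Tnfsf10 was the 1 of the 7 tested genes whose groups did not overlap. Fasl (Entrez gene 14103, chromosome 1, 161780691 to 161788495), the ligand of Fas and a product of activated T and natural killer cells, had 2 counts in panobinostat library 3 and 0 in the other 5 libraries. Both groups lay at or under the limit that a count of 0 allows, so no fold is given. Tnfsf10 (Entrez gene 22035, chromosome 3, 27317077 to 27339665), which encodes TRAIL and is known as an interferon-stimulated gene, stood at 18.6, 10.5 and 10.2 CPM in panobinostat libraries 1, 2 and 3 and at 6.29, 8.35 and 7.89 CPM in vehicle libraries 1, 2 and 3. Every panobinostat library lay above every vehicle library, and panobinostat library 1 lay well above the other two of its group. In the whole table, groups did not overlap for 7.43% of tested genes, with panobinostat higher for 3.79% and lower for 3.63%, beside 1 of the 7 pathway genes. The log2 fold change was 0.81 (SE 0.284, 95% interval 0.12 to 1.49), a fold of 1.75, with an unadjusted p of 0.0280 and an adjusted p of 0.998 in edgeR's quasi-likelihood test. The estimate was 0.47 (SE 0.197) without panobinostat library 1 and 0.34 (SE 0.155) without both libraries numbered 1, with edgeR adjusted p of 1 and 0.209. Over all 17 alternatives it ran from 0.34 to 0.95, with adjusted p from 0.209 to 1.

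Cell type markers stood as follows beside Tnfsf10. The 10 mast cell and basophil markers summed to 4835 CPM in panobinostat library 1, where Tnfsf10 was highest, and to 2762 and 2844 CPM in panobinostat libraries 2 and 3, against 2572 to 2992 CPM in vehicle libraries. Apart from Kit, genes of this list were named after their values were seen. Hdc had 1325 CPM in panobinostat library 1 and 420 to 559 CPM in the other 5. Ms4a2 had 695 CPM there and 239 to 372 CPM in the other 5. Cpa3, which encodes a carboxypeptidase of mast cell granules, had 210 CPM in panobinostat library 1 and at most 25.9 CPM in the other 5. Fcer1a, Kit and Il1rl1 were not highest in that library. Fcer1a had 27.4 CPM there and 60.8 CPM in vehicle library 1, and Kit 241 CPM there and 266 CPM in vehicle library 3. Il1rl1, of the same list, was high in every library, at 845 to 1203 CPM in panobinostat and 760 to 1218 CPM in vehicle libraries. Whether these transcripts come from the leukaemia cells or from others was not tested, nor was their link to the Tnfsf10 difference. The 14 T cell markers, of which all 14 averaged lower with panobinostat, summed to 11.1 to 20.2 CPM in panobinostat and 18.2 to 22.5 CPM in vehicle libraries. Cd247 alone had 5.57 to 10.1 CPM of this in panobinostat and 6.00 to 8.75 CPM in vehicle libraries. Cd3e, a chain of the T cell receptor complex, had at most 0.682 CPM in panobinostat and 0.916 CPM in vehicle libraries. The 11 natural killer and cytotoxic cell markers summed to 2.02 to 4.2 CPM in panobinostat libraries and to 28.0, 2.09 and 1.39 CPM in vehicle libraries 1, 2 and 3. Gzmb at 15.5 CPM and Nkg7 at 11.5 CPM made up most of the sum in vehicle library 1. Ncr1, the natural killer receptor NKp46, had 0 counts in all 3 panobinostat libraries and 1 to 5 counts in vehicle libraries, with 1 in vehicle library 1. The 10 B cell markers also averaged lower with panobinostat, all 10 of them, at a sum of 5.59 to 32.1 CPM in panobinostat and 30.2 to 51.4 CPM in vehicle libraries. The 10 monocyte and macrophage markers summed to 12.7 to 26.2 CPM in panobinostat and 18.5 to 22.8 CPM in vehicle libraries. The 10 granulocyte markers summed to 0.361 to 3.18 and 0.916 to 4.70 CPM in panobinostat and in vehicle libraries. The 8 dendritic cell markers summed to 54.4 to 63.2 CPM in panobinostat and 46.9 to 63.1 CPM in vehicle libraries. Most of this was Bst2, at 33.0 to 45.8 CPM in panobinostat and 26.6 to 39.4 CPM in vehicle libraries, and Tcf4. Siglech, which defines plasmacytoid dendritic cells, had at most 0.0593 CPM in panobinostat and 0.174 CPM in vehicle libraries.

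The intracellular genes were counted in every library, and none passed the test. Fadd (Entrez gene 14082, chromosome 7, 144578323 to 144582441), the adaptor that bridges receptors and caspase-8, stood at 22.3, 17.3 and 18.9 CPM in panobinostat libraries 1, 2 and 3 and at 14.6, 19.9 and 19.5 CPM in vehicle libraries 1, 2 and 3. Panobinostat library 1 was the highest and vehicle library 1 the lowest of the 6, and the groups overlapped. Its log2 fold change was 0.11 (SE 0.176, 95% interval -0.31 to 0.54), with an edgeR adjusted p of 0.998. Without vehicle library 1 the estimate changed sign, to -0.03 (SE 0.142) with an edgeR adjusted p of 0.936. An antisense gene, Faddos, shares 6.12% of the exon bases of Fadd, and without a stated strand setting its reads cannot be told apart from those of Fadd.

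Tradd (Entrez gene 71609, chromosome 8, 105258575 to 105264594), the adaptor of the TNF receptor, stood at 35.1, 33.4 and 34.3 CPM in panobinostat libraries 1, 2 and 3 and at 37.9, 31.5 and 30.0 CPM in vehicle libraries 1, 2 and 3. The panobinostat libraries lay within the vehicle range. Ripk1 (Entrez gene 19766, chromosome 13, 34002225 to 34035170), the kinase that serves survival, apoptosis and necroptosis, stood at 64.1, 63.6 and 66.8 CPM in panobinostat libraries 1, 2 and 3 and at 63.2, 57.3 and 65.7 CPM in vehicle libraries 1, 2 and 3. These 2 genes had the smallest estimates and standard errors of the 7, with folds of 1.03 for Tradd and 1.04 for Ripk1. The 95% intervals of the folds ran from 0.846 to 1.26 for Tradd and from 0.894 to 1.22 for Ripk1. The exons of Ripk1 share 2.89% of their bases with Serpinb6a on the other strand and 6.12% with the pseudogene Gm17084.

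Casp8 (Entrez gene 12370, chromosome 1, 58795233 to 58847503), the initiator caspase of the pathway, stood at 76.6, 63.4 and 66.0 CPM in panobinostat libraries 1, 2 and 3 and at 68.2, 59.5 and 55.5 CPM in vehicle libraries 1, 2 and 3. Vehicle library 1 lay above 2 of the panobinostat libraries, so the groups overlapped. Its log2 fold change was 0.17 (SE 0.124, 95% interval -0.13 to 0.47) with an edgeR adjusted p of 0.998, and 0.24 (SE 0.111) with 0.291 without vehicle library 1. Cflar (Entrez gene 12633, chromosome 1, 58711311 to 58758884) stood at 130, 94.8 and 99.2 CPM in panobinostat libraries 1, 2 and 3 and at 121, 72.2 and 83.7 CPM in vehicle libraries 1, 2 and 3. Both libraries numbered 1 were the highest, and the panobinostat libraries lay above vehicle libraries 2 and 3. Its log2 fold change was 0.23 (SE 0.225, 95% interval -0.32 to 0.77) with an edgeR adjusted p of 0.998. Without vehicle library 1 it was 0.46 (SE 0.168) with an edgeR adjusted p of 0.211, and without both libraries numbered 1 it was 0.30 (SE 0.102) with 0.113. Counts per gene do not separate the long and short forms of c-FLIP.

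**Figure D2:**
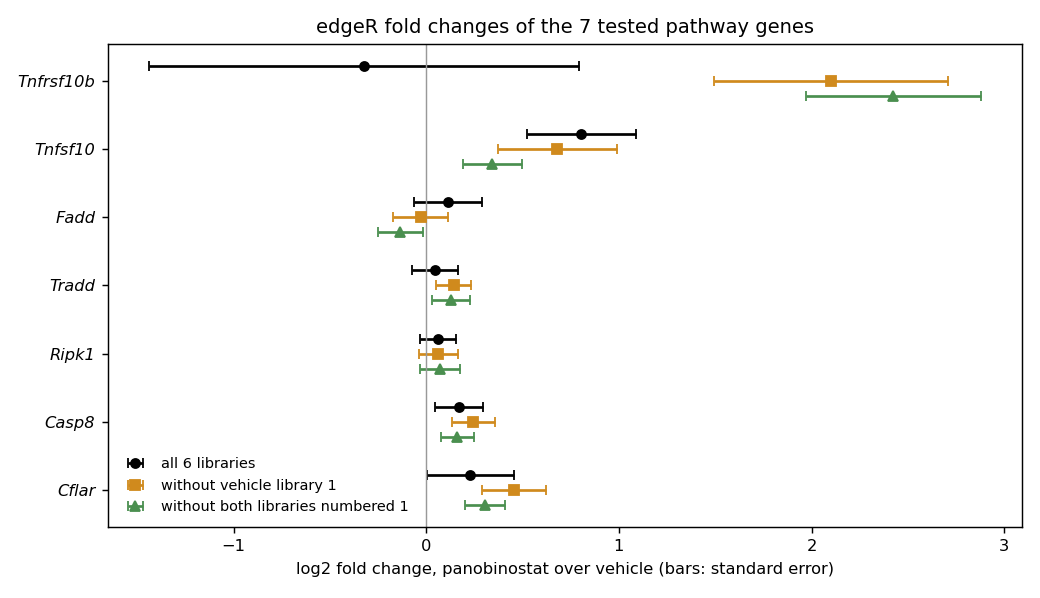
Log2 fold changes of panobinostat over vehicle from edgeR (x axis) for the 7 tested pathway genes, with bars for the standard error, from all 6 libraries, without vehicle library 1 and without both libraries numbered 1. Tnfrsf10b moved from -0.32 to 2.1 and 2.42, Tnfsf10 stayed above 0 at 0.81, 0.68 and 0.34, and Ripk1 stayed between 0.06 and 0.07.

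Casp8 and Cflar lie next to each other on chromosome 1 on the same strand, and their levels followed each other across the libraries. Over the 6 libraries, which are few and share group and depth, the Pearson r of their log2 CPM was 0.886, and Cflar ranked 533 of 13206 tested genes by its r with Casp8. The ratio of Cflar to Casp8 counts was 1.70, 1.5 and 1.5 in panobinostat libraries 1, 2 and 3 and 1.77, 1.21 and 1.51 in vehicle libraries 1, 2 and 3. The ratio averaged 1.56 ± 0.113 in panobinostat and 1.5 ± 0.278 in vehicle libraries (SD, n = 3 each), with p = 0.9 in a two-sided exact permutation test on its log2, adjusted p = 0.9 over the 2 ratios computed. The smallest p that 3 libraries against 3 allow is 0.1. The genes most like Casp8 by the same measure, among 10586 genes with a mean log2 CPM of at least 1, were Atxn10, Acot2 and Anxa2, with r of 0.999, 0.996 and 0.994. As 364 genes had an r above 0.9, such values describe these libraries and no more.

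**Figure D3:**
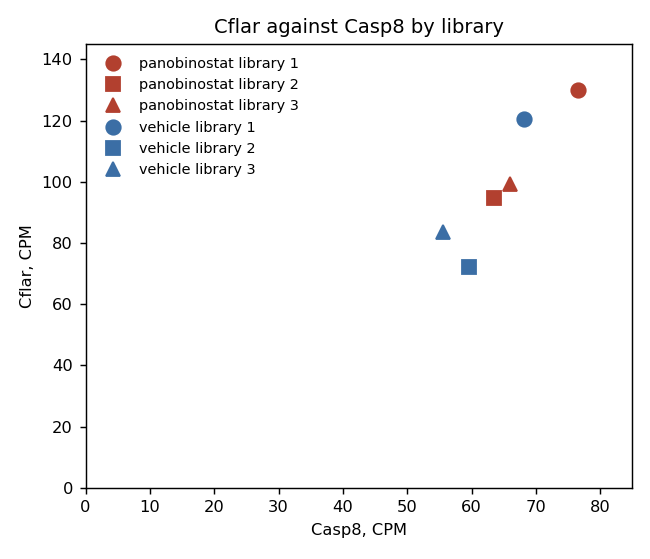
CPM of Cflar (y axis) against CPM of Casp8 (x axis), with panobinostat libraries in red and vehicle libraries in blue and 1 point for each library. Panobinostat library 1 lay highest on both axes at 76.6 and 130 CPM, and vehicle library 1 second at 68.2 and 121 CPM.

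The promoter windows of Tnfsf10, which had the largest estimate of the 7 tested genes, and of the neighbours Casp8 and Cflar are printed here from RefSeq on GRCm38.p6, each from 250 bases before to 50 bases after an annotated start. The Casp8 window belongs to a start inside the gene's annotated span. Capitals mark matches on either strand to a GC box (GGGCGG), the core of an interferon-stimulated response element (GAAA, any 2 bases, GAAA), a STAT site (TTCNNNGAA) or a TATA box (TATAAA).
Tnfsf10 (chr3:27316827-27317126, plus strand): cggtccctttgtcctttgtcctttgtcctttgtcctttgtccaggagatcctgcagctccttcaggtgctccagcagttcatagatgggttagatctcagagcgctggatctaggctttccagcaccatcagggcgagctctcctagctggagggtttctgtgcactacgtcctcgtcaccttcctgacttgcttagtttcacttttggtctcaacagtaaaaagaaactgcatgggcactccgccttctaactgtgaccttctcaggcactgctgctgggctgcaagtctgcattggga
Casp8 (chr1:58802252-58802551, plus strand): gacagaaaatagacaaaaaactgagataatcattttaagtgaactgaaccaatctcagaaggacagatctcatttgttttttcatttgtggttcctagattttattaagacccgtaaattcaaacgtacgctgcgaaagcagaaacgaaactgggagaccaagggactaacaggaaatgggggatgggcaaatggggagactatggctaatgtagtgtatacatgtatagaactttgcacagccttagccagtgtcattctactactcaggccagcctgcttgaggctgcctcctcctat
Cflar (chr1:58711241-58711540, plus strand): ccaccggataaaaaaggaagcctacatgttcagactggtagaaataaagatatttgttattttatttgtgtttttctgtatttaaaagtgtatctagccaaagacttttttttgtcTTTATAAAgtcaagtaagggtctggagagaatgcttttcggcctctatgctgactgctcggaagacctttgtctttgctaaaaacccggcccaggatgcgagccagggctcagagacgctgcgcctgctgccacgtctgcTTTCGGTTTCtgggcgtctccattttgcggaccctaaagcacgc

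The Tnfsf10 and Casp8 windows held none of these letters. The Cflar window held 1 match to the response element core on the reverse strand and 2 overlapping TATA box matches, 1 on each strand. Over 32851 promoter windows of the same length in the table, 35.7% held a GC box, 3.44% the response element core, 8.3% the STAT site and 13.6% the TATA box. Windows were held for 8 of the 10 genes, all but Tnfrsf10b and Tradd. Fas, whose transcript was near the limit, had 2 GC boxes and Fadd, counted in every library, also had 2. A match describes letters and no more.

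To compare levels between genes, CPM were divided by the length of all annotated exons in GENCODE vM21, giving RPKM. Averaged over the 6 libraries, Casp8 stood highest at 22.4 RPKM, followed by Tradd at 18.1, Cflar at 7.90, Ripk1 at 7.60, Fadd at 4.80, Tnfsf10 at 1.96 and Tnfrsf10b at 0.287 RPKM. The rest were Tnfrsf1a at 0.104, Fas at 0.0448 and Fasl at 0.0051 RPKM. Between neighbours in this order, the ranges of the 6 libraries overlapped for Casp8 and Tradd and for Cflar and Ripk1. They also overlapped for Tnfrsf10b and Tnfrsf1a, for Tnfrsf1a and Fas and for Fas and Fasl. They did not overlap for Tradd and Cflar, Ripk1 and Fadd, Fadd and Tnfsf10, or Tnfsf10 and Tnfrsf10b. Ranges of genes further apart overlapped for Cflar and Fadd, Tnfrsf10b and Fas, and Tnfrsf1a and Fasl. The lowest Cflar value was 5.70 RPKM, in vehicle library 2, and the highest Fadd value 5.72 RPKM, in panobinostat library 1. Exon length differs between annotations, so these levels hold for the annotation named.

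**Figure D4:**
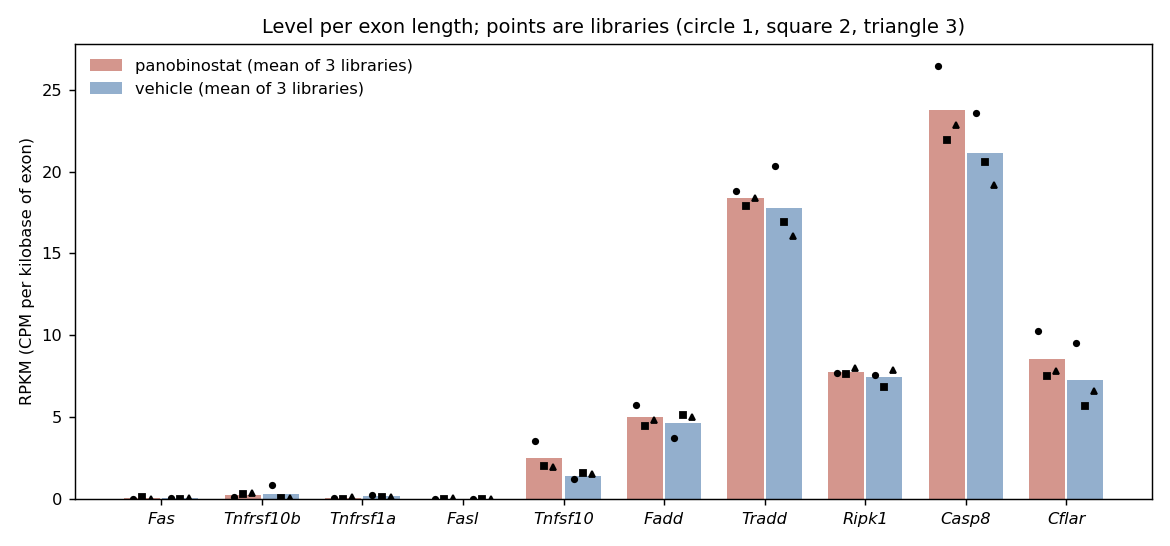
Level per exon length (RPKM, y axis) of the 10 pathway genes, with bars for the mean of 3 libraries, panobinostat left of vehicle, and points for libraries. Casp8 and Tradd stood highest in both groups, and the 3 receptors and Fasl lay near 0.

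Of the wider pathway, 91 genes in 6 lists were described beside the 10. Of these, 73 passed the filter on low counts, and edgeR, DESeq2 and limma-voom each called 0, with 3 genes at an unadjusted p under 0.05 in edgeR (2.28% of all tested genes). Estimates were higher for 34 and lower for 39, and the median log2 fold change was -0.0085. Groups did not overlap for 5 of the 73, 3 higher and 2 lower with panobinostat, beside 7.43% of all tested genes.

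Other TNF family ligands had 5 of 15 genes tested, 0 called in either direction, 2 with higher and 3 with lower estimates. Tnf, the founding cytokine of the family, stood at 8.42, 3.32 and 6.26 CPM in panobinostat libraries 1, 2 and 3 and at 17.1, 0.545 and 0.493 CPM in vehicle libraries 1, 2 and 3. Vehicle library 1 was again the highest and its 2 partners the lowest, and the log2 fold change of -0.01 (SE 1.33) became 3.51 (SE 0.499) without that library, with an edgeR adjusted p of 0.0351. Tnfsf14, the ligand LIGHT, stood at 3.61, 1.38 and 1.16 CPM in panobinostat and 13.0, 0.115 and 0.174 CPM in vehicle libraries 1, 2 and 3. Its log2 fold change of -1.11 (SE 1.63) was 3.78 (SE 0.747) without vehicle library 1, with an edgeR adjusted p of 0.0688. Tnfsf9, the ligand of 4-1BB, averaged 3.80 ± 2.58 CPM in panobinostat and 1.48 ± 1.44 CPM in vehicle libraries (SD, n = 3 each). Its log2 fold change of 1.36 (SE 0.826) was 2.5 (SE 0.698) without vehicle library 1, with an edgeR adjusted p of 0.132, and 0.65 without panobinostat library 1. Ltb, lymphotoxin beta, which lymphocytes make, averaged 1.96 ± 1.47 CPM in panobinostat and 4.06 ± 1.43 CPM in vehicle libraries (SD, n = 3 each). B cell markers moved the same way, as given above, and their part in the Ltb values was not tested. Without panobinostat library 3 the log2 fold change of Ltb was -1.86, against -1.05 with all 6 libraries.

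Other receptors of the family had 14 of 21 genes tested, 0 called, 8 with higher and 6 with lower estimates and a median log2 fold change of 0.44. Tnfrsf21, the death receptor DR6, stood at 55, 58.5 and 45.7 CPM in panobinostat libraries 1, 2 and 3 and at 25.5, 42.4 and 42.0 CPM in vehicle libraries 1, 2 and 3. Every panobinostat library lay above every vehicle library, with a log2 fold change of 0.53 (SE 0.220), an unadjusted p of 0.0489 and an adjusted p of 0.998 in edgeR. Without vehicle library 1, which was the lowest, the log2 fold change of Tnfrsf21 was 0.32 (SE 0.129) with an edgeR adjusted p of 0.245. Tnfrsf13b, the B cell receptor TACI, averaged 3.32 ± 0.671 CPM in panobinostat and 1.64 ± 0.509 CPM in vehicle libraries, and Tnfrsf13c, the receptor of B cell activating factor, 0.398 ± 0.359 and 1.76 ± 0.859 CPM in panobinostat and in vehicle libraries (SD, n = 3 each). Both had groups that did not overlap, in opposite directions, with edgeR adjusted p of 0.998. Of all tested genes, 3.79% had panobinostat libraries all higher and 3.63% had them all lower. The log2 fold change of Tnfrsf13c was -2.14 (SE 0.757), and -3.15 without panobinostat library 3. All 10 B cell markers averaged lower with panobinostat, as given above, which Tnfrsf13c did as well and Tnfrsf13b did not. The part of B cells in the values of either receptor was not tested. Tnfrsf14, the receptor HVEM, took the most reads of this list and stood at 55.7 ± 18.5 CPM in panobinostat and 62.9 ± 12.9 CPM in vehicle libraries.

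The complex that forms at the TNF receptor, with its ubiquitin ligases and their opponents, was counted throughout, with 24 of 24 genes tested, 0 called, 10 with higher and 14 with lower estimates. Traf3, an adaptor that restrains alternative NF-kB signalling, averaged 121 ± 34.7 CPM in panobinostat and 89.2 ± 13.4 CPM in vehicle libraries, with an edgeR adjusted p of 0.998. Rnf31, the catalytic subunit of the linear ubiquitin ligase, averaged 68.7 ± 9.18 CPM in panobinostat and 60.8 ± 3.47 CPM in vehicle libraries. Chuk, the kinase IKK alpha, averaged 82.6 ± 4.92 CPM in panobinostat and 91.6 ± 3.72 CPM in vehicle libraries (SD, n = 3 each), with groups that did not overlap. Tab2, which links ubiquitin chains to the kinase TAK1, took the most reads of this list and stood at 250 ± 7.87 CPM in panobinostat and 239 ± 65.1 CPM in vehicle libraries.

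Of the necroptosis genes, 3 of 3 were tested and 0 called, 2 with higher and 1 with a lower estimate. Ripk3, the kinase that activates MLKL, stood at 147, 83.6 and 77.0 CPM in panobinostat libraries 1, 2 and 3 and at 79.8, 86.8 and 76.5 CPM in vehicle libraries 1, 2 and 3, so panobinostat library 1 alone stood high. The ratio of Ripk3 to Casp8 counts averaged 1.47 ± 0.399 in panobinostat and 1.34 ± 0.148 in vehicle libraries (SD, n = 3 each), with p = 0.9 in a two-sided exact permutation test. Mlkl, the effector that breaks the membrane, stood at 28.9, 29.8 and 28.1 CPM in panobinostat libraries 1, 2 and 3 and at 49.6, 12.2 and 12.2 CPM in vehicle libraries 1, 2 and 3. Its log2 fold change of 0.23 (SE 0.568) became 1.24 (SE 0.104) without vehicle library 1, with an edgeR adjusted p of 0.0173. Zbp1, a nucleic acid sensor that can start necroptosis, stayed at or under 0.537 CPM.

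Regulators of caspase-8, FADD and c-FLIP had 12 of 13 genes tested, 0 called, 5 with higher and 7 with lower estimates. Pea15a, a death effector domain protein, averaged 5.09 ± 1.47 CPM in panobinostat and 3.42 ± 2.27 CPM in vehicle libraries (SD, n = 3 each). Without vehicle library 1 its log2 fold change of 0.57 (SE 0.519) was 1.22 (SE 0.399), with an edgeR adjusted p of 0.17. Without vehicle library 2 it was 0.22. Cul3, the ubiquitin ligase scaffold that acts on caspase-8, averaged 97.2 ± 3.94 and 105 ± 11.4 CPM in panobinostat and in vehicle libraries (SD, n = 3 each). Faim, an inhibitor of Fas-induced death, averaged 15.1 ± 1.90 CPM in panobinostat and 13.8 ± 1.33 CPM in vehicle libraries. Fem1b averaged 132 ± 3.92 and 131 ± 5.93 CPM in panobinostat and in vehicle libraries.

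Downstream of caspase-8, 15 of 15 genes of the mitochondrial arm and executioners were tested, 0 called, 7 with higher and 8 with lower estimates. Casp6, an executioner caspase, stood at 47.3, 41.2 and 33.4 CPM in panobinostat libraries 1, 2 and 3 and at 37.4, 92.5 and 82.8 CPM in vehicle libraries 1, 2 and 3. Here vehicle library 1 lay within the panobinostat range while its partners lay far above it. The log2 fold change of Casp6 was -0.80 (SE 0.344, edgeR adjusted p 0.998) and -1.12 (SE 0.157, edgeR adjusted p 0.0344) without vehicle library 1. Diablo, which frees caspases from their inhibitors, stood at 51.8, 52.0 and 49.4 CPM in panobinostat libraries 1, 2 and 3 and at 42.8, 77.1 and 73.8 CPM in vehicle libraries 1, 2 and 3. Casp9, the initiator of the mitochondrial route, stood at 55.9, 58.1 and 54.0 CPM in panobinostat and 51.6, 70.9 and 71.2 CPM in vehicle libraries 1, 2 and 3. Both had the same order, with vehicle library 1 lowest and vehicle libraries 2 and 3 highest.

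**Figure D5:**
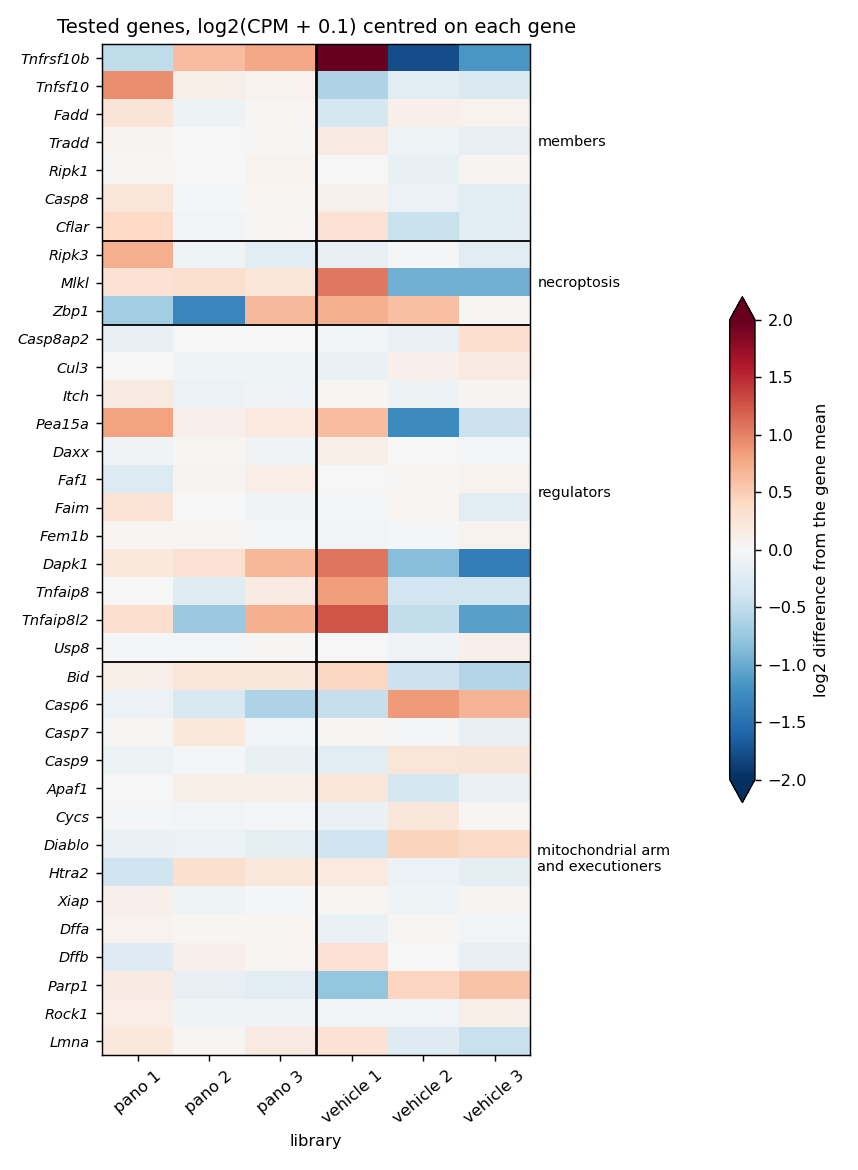
Log2(CPM + 0.1) of the 7 tested pathway genes and of the tested necroptosis, regulator and mitochondrial arm or executioner genes reported here (rows), centred on each gene, in panobinostat libraries (left) and vehicle libraries (right). Colours end at 2 in each direction. Vehicle library 1 lies on the other side of the gene's mean from both vehicle libraries 2 and 3 for 5 of the 7 pathway genes and 22 of the 36 genes drawn. The share over all tested genes was not computed, so these counts say nothing particular about the pathway.

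Without vehicle library 1, edgeR called 0 of the 7 pathway genes and 7 of 74 tested genes of the wider lists, 5 higher and 2 lower, beside 2% of all tested genes higher and 0.419% lower. The higher genes were Tnf, Mlkl and, named after their values were seen, Tnfrsf18, Dapk1 and Bid. The lower genes were Casp6 and Diablo. Bid, which carries the caspase-8 signal to mitochondria, stood at 65.0, 70.4 and 70.0 CPM in panobinostat libraries 1, 2 and 3 and at 79.7, 44.3 and 39.8 CPM in vehicle libraries 1, 2 and 3, with a log2 fold change of 0.69 (SE 0.0949) and an edgeR adjusted p of 0.0335 in that setting. Dapk1, a death-associated kinase, averaged 51.7 ± 9.0 CPM in panobinostat and 39.5 ± 36.9 CPM in vehicle libraries, and Tnfrsf18, the receptor GITR, 23.4 ± 1.52 and 16.0 ± 16.7 CPM in panobinostat and in vehicle libraries (SD, n = 3 each). Without vehicle library 1 the log2 fold change of Dapk1 was 1.49 (SE 0.222), against 0.39 (SE 0.627) with it, and that of Tnfrsf18 was 1.87 (SE 0.135), against 0.55 (SE 0.694) with it, with edgeR adjusted p of 0.0395 and 0.0162 without it. Vehicle library 1 was the highest or lowest of the 6 libraries for 33 of the 73 genes of the wider lists (45.2%) and for 4 of the 7 pathway genes, beside 47.9% of all tested genes. These calls rest on 2 vehicle libraries.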

How the data were processed

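RNA-seq libraries (mRNA, TruSeq) were made from sorted leukaemia cells. The authors deposited whole-number read counts per gene for all 6 libraries in a single table. Per the submitters' processing notes, the build was mm10 and the tools were HISAT2 2.1.0, Subread 2.0.0 with featureCounts, cutadapt 2.1, FastQC 0.11.6, bcl2fastq 2.17.1.14 and limma. No source used here gives the strand setting or annotation, and reads of overlapping genes may be shared. Symbols were matched for 25275 of 27179 gene IDs.

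From these counts, genes passing filterByExpr (minimum count 10) were scaled by TMM and tested with edgeR 4.0.16 (robust quasi-likelihood, R 4.3.3) over all 13207 genes, panobinostat minus vehicle, with Benjamini-Hochberg adjustment at 0.05. Ratios were tested by exact permutation. Correlations used log2 CPM with a prior count of 2. The test was checked on simulated data with the same spread setting for every gene and no outlying library. That check does not measure its power on these libraries. Alternatives were RLE, upper-quartile and library-size scaling, other filters, DESeq2 1.42.0, limma-voom 3.58.1, a replicate block, a threshold of 0.01 and leaving out libraries. The 10 genes and all lists were chosen with earlier results of these data known. From each wider list the text names genes passing 0.05, the 3 with the smallest p and the 1 with the highest mean CPM, and 1 such gene is not reported here. Intervals are 95%.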

Additional observations from a re-analysis of the deposited data

How the results depend on the processing

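Changes are log2, panobinostat over vehicle, and the cause of the shifts was not tested. Genes called over the whole table numbered 0 in edgeR, 9 with DESeq2, 0 to 324 with 1 library left out (324 without vehicle library 1) and 1590 without both libraries numbered 1, a setting chosen after seeing the data. Pathway genes called were 0 in all settings but the last, where 1, Tnfrsf10b, was called. Their median change was 0.052 to 0.24 with 1 library left out. In the wider lists, leaving out 1 library gave 0 to 1 calls among ligands, receptors, necroptosis genes and regulators and 0 to 3 in the mitochondrial arm. All of these came without vehicle library 1, where 2% of all tested genes were called higher and 0.419% lower. Without both libraries numbered 1 there were 2 calls among ligands, 1 each among receptors, complex genes, necroptosis genes and regulators, and 7 in the mitochondrial arm. Of 73 tested genes of these lists, 9 were called higher and 4 lower, beside 7.36% of all tested genes higher and 4.65% lower. The 4 lower genes were all in the mitochondrial arm, whose calls thus went in both directions. Tnfrsf10b turned to 0.77 with limma-voom, 0.97 with the replicate block and 2.42 without both libraries numbered 1, and ran from -0.84 to 2.1 with 1 library left out. Under the same 4 settings, Tnfsf14 gave 1.49, 1.43, 3.09 and -1.80 to 3.78, and Tnf gave 1.79, 1.80, 3.19 and -0.55 to 3.51, and 0.0059 with no filter. Without both libraries numbered 1, Fadd gave -0.13, Ripk3 -0.034 and Fem1b -0.034, and Fem1b gave -0.0017 on library size alone. With 1 library left out, ranges crossing 0 were -0.028 to 0.20 for Fadd, -0.018 to 0.14 for Tradd, -0.35 to 0.078 for Tnfrsf14, -0.054 to 0.30 for Tab2, -0.012 to 0.51 for Ripk3, -0.089 to 1.24 for Mlkl and -0.018 to 0.054 for Fem1b. Whether the column numbers pair the samples is not known. After group means were removed, correlations of same-numbered libraries were -0.139, 0.072 and -0.203, and so few values cannot decide it. The replicate block called 0 genes, as did the fit without it. Depth limits Fas, Tnfrsf1a and Fasl, whose few counts kept them out of the test.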
